A study of Mus musculus with 6 samples.

Results

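Ddit4 and 9 genes that build, restrain or act for the mTORC1 kinase complex were followed in the left ventricle of mice on high fat food given Lira or placebo. The genes were chosen by their symbols in the platform's probe annotation, and the set was built around Ddit4 because Ddit4 had stood out when these same Lira and placebo arrays were compared. Of the 10 genes, 9 have at least 1 probe set that names them alone, with 21 probe sets among 45101 on the array, and these 9 are among 18193 genes with such a probe set. No probe set is named for Rps6kb1 in the annotation used here, so the S6 kinase gene itself was not analysed.

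The arrays came from 3 mice labelled Lira and 3 mice labelled placebo, with 1 array for each. All 6 were male C57BL/6 mice, an inbred strain that gains fat readily, at an age of 6 months after 16 weeks of high fat food, so there was no lean or normally fed group. The labels do not spell out Lira and give no dose or route. The design text mentions 10 mice, and others than these 6 were not analysed here.

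mTORC1 is a protein kinase complex that drives protein synthesis and cell growth when insulin, amino acids and energy are plentiful. It is switched on by the small GTPase Rheb, and the TSC complex keeps Rheb off. Ddit4, also called REDD1, is made during hypoxia, energy stress and glucocorticoid exposure and restrains mTORC1 through the TSC complex, and its relative Ddit4l does the same mainly in muscle. In heart, mTORC1 is known for its part in hypertrophy and for holding back autophagy. Much of its regulation is by phosphorylation, which arrays do not measure.

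Ddit4 is described below beside genes induced by hypoxia, ATF4 and glucocorticoids, so the stretch of 250 bases before its annotated start is shown with that of Ddit4l, the other gene of the family. Both were taken from RefSeq on GRCm38.p6 and run 5′ to 3′ on the strand of the gene. Capitals mark matches to a GC box (GGGCGG) or to the core of a hypoxia response element (ACGTG), each searched on both strands.
Ddit4, chr10:59951771-59952020, minus strand: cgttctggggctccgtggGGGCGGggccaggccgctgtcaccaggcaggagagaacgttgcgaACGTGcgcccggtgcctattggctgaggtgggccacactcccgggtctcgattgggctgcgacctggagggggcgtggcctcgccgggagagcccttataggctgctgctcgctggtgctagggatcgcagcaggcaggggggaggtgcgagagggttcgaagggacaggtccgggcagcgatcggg
Ddit4l, chr3:137623422-137623671, plus strand: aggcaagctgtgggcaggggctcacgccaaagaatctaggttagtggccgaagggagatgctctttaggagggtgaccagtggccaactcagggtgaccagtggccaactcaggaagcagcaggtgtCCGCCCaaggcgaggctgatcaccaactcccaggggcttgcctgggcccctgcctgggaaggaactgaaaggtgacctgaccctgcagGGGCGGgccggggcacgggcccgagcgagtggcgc

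The Ddit4 stretch held 1 hypoxia core and 1 GC box, and the Ddit4l stretch held 2 GC boxes and 0 hypoxia cores. Over all 32851 stretches of this length in the table, 16.6% held the hypoxia core and 32.7% the GC box, so neither match is rare. A CREB site (TGACGTCA), an E-box (CACGTG), an ATF4 composite site (TGATGNAA), a glucocorticoid receptor site core (AGAACA) and a FOXO site (TGTTTAC) were searched for in the same way, and none was found in either stretch. Among all stretches they were held by 1.55% for the CREB site, 6.02% for the E-box, 3.45% for the ATF4 site, 16.1% for the glucocorticoid core and 3.17% for the FOXO site. Each E-box contains the hypoxia core. Letters that match are no evidence that a factor binds. Sites outside these 250 bases were not searched for, so a site not found here may lie elsewhere.

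Signals are linear fluorescence units that the authors scaled, so that the mean after trimming 2% at either end is 150, and the median signal of an array was 28.6 to 39.6. Arrays have no read depth, and their number limits the precision. The extraction text names blood where the other labels name the left ventricle. The summed signal of 7 cardiomyocyte markers was 172593 to 215198 on Lira arrays and 172054 to 181367 on placebo arrays. All 7 had a higher mean with Lira. The groups were apart for Ryr2, at 7699 ± 160 with Lira and 6741 ± 231 with placebo (SD), and overlapped for the others. The 5 blood and platelet markers with a probe set summed to 466.9 to 493.8 with Lira and 394.5 to 549.8 with placebo. Most of that sum was the platelet gene Pf4, and the globin gene Hba-a1 did not exceed 31.8 on any array. The ratio of 3′ to 5′ signal of Actb, a sign of RNA integrity, was 1.63 to 1.74 with Lira and 1.55 to 1.67 with placebo, and that of Gapdh was 0.782 to 0.830 with Lira and 0.781 to 0.828 with placebo. Both ratios overlapped between the groups. In whole ventricle, fewer cells of a type and less RNA per cell cannot be told apart.

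Ddit4 was measured by 1 probe set. Its signal was 1289, 1200 and 1193 on the 3 Lira arrays, against 2347, 2003 and 1807 on the 3 placebo arrays. All Lira arrays lay below all placebo arrays, and the Lira arrays lay close together while the placebo arrays were spread out. The means were 1227 ± 53.7 with Lira and 2052 ± 273 with placebo (SD, n = 3 each), so that Lira hearts held 0.598 of the placebo signal. On the log2(signal + 16) scale used for all differences here, Lira minus placebo was -0.73 ± 0.10 (SE). Since Ddit4 was chosen from this contrast, these values are a description and no p is given for it.

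**Figure D1:**
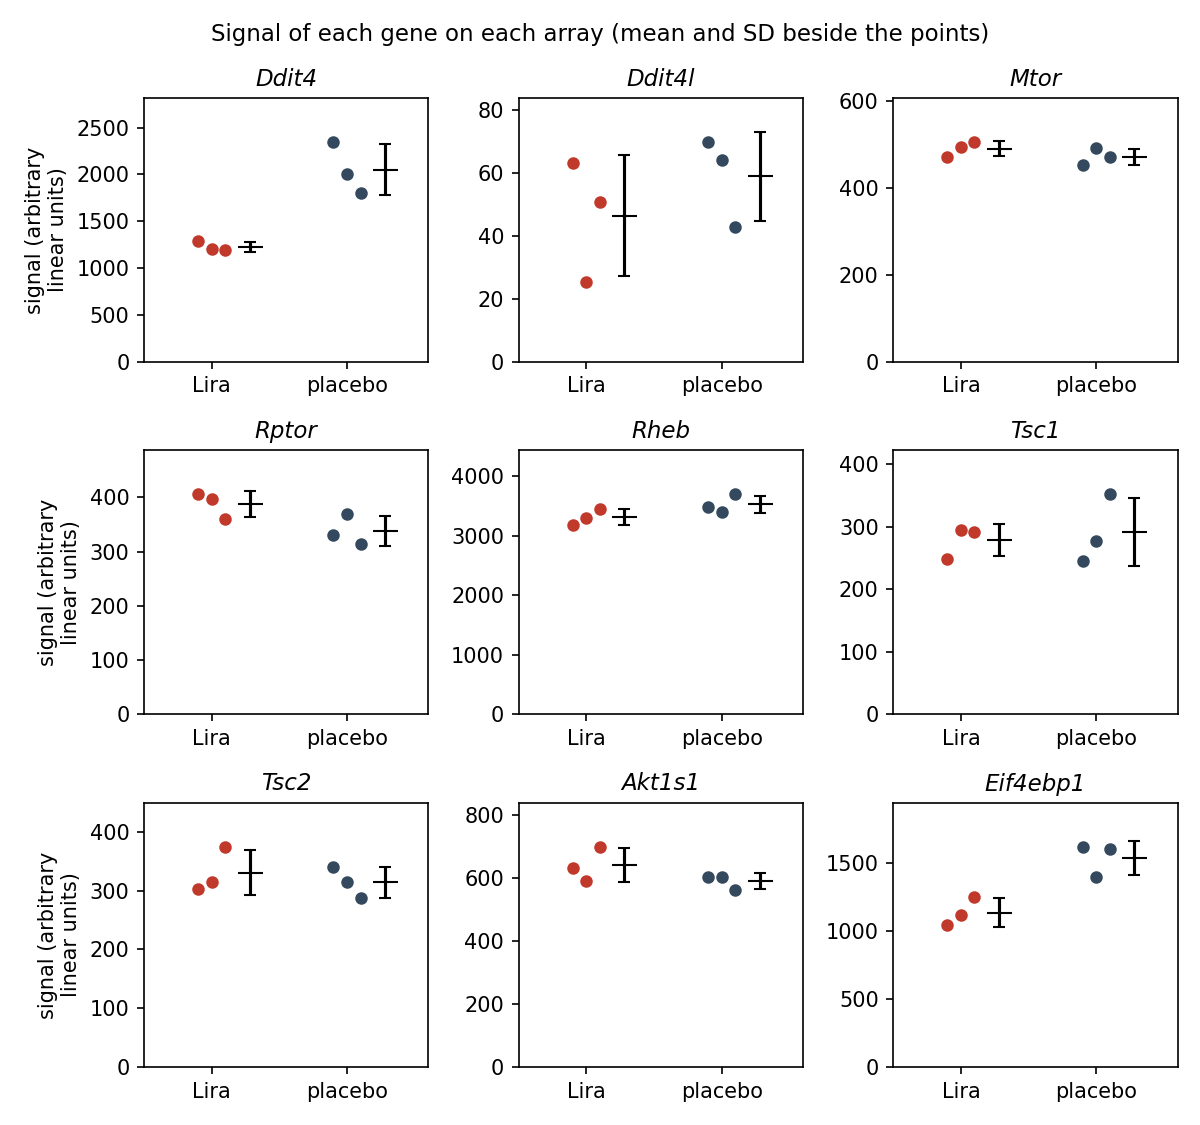
Signal in arbitrary linear units on each array for the 9 genes with a probe set, at the probe set with the highest mean signal of each, with Lira left of placebo and each axis starting at 0. Points are single arrays, and the bar beside them shows mean and SD of 3 arrays. The groups are apart for Ddit4 and Eif4ebp1 and overlap for the other 7 genes.

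Ddit4l, the relative, was dim. Its brightest probe set gave 63.2, 25.5 and 50.7 with Lira, against 69.9, 64.1 and 42.8 with placebo, and the groups overlapped. The difference was -0.29 on the log2 scale with a 95% interval of -0.90 to 0.31 (adjusted p = 0.93, limma over all 12736 genes tested). Its other 2 probe sets gave 0.13 and 0.12, so the sign was not shared. The interval is wide enough to hold a change as large as that of Ddit4 as well as none.

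Eif4ebp1 encodes 4E-BP1, the repressor of cap-dependent translation that mTORC1 phosphorylates and so releases. Its brightest probe set gave 1042, 1115 and 1251 with Lira, against 1618, 1394 and 1607 with placebo, with every Lira array below every placebo array. The means were 1136 ± 106 with Lira and 1540 ± 126 with placebo (SD, n = 3 each). The log2 difference was -0.43 ± 0.10 (SE), with a 95% interval of -0.65 to -0.21. Its unadjusted p of 8.8e-04 ranked 31 among 12736 genes, and it did not pass after Benjamini-Hochberg adjustment over them (adjusted p = 0.36 in limma, and 0.26 to 0.999 in the alternatives).

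The 3 probe sets of Eif4ebp1 had the same sign. The second gave 775.9, 915.5 and 884.8 with Lira, against 935.3, 1080 and 1074 with placebo, a log2 difference of -0.26 ± 0.11 (SE). The groups were apart there too. The third gave 168.3, 109.2 and 120.3 with Lira, against 163.4, 170.3 and 142.8 with placebo, a difference of -0.25 ± 0.17 (SE), and its groups overlapped because of Lira replicate 1. The brightest probe set is of the type whose probes may also match other transcripts, as its suffix shows, and the other probe sets are not. Probe sets of 1 gene share the same RNA and are not replicates of the comparison.

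The catalytic and scaffold subunits of mTORC1 gave overlapping groups. Mtor, the kinase, measured 471.9, 494.4 and 505.9 with Lira, against 452.2, 491.1 and 471.1 with placebo. Its log2 difference was 0.06 with a 95% interval of -0.16 to 0.28 (adjusted p = 0.97, limma). Rptor, the scaffold that brings substrates to the kinase, measured 405.4, 396.8 and 359.9 with Lira, against 330.1, 369.5 and 315.1 with placebo. Only Lira replicate 3 and placebo replicate 2 crossed there, and the difference was 0.19 with an interval of -0.06 to 0.44 (adjusted p = 0.87, limma).

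Mtor has a second, dimmer probe set that went the other way. It gave 71.1, 43.2 and 52.6 with Lira, against 116.1, 96.0 and 67.6 with placebo, a log2 difference of -0.60 ± 0.23 (SE). The groups overlapped through Lira replicate 1 and placebo replicate 3, and with every probe set tested on its own the adjusted p was 0.82 (limma, 24462 probe sets). The mean of the 3 Mtor probe sets differed by -0.16, so the sign of Mtor depends on the probe set taken. Which transcript the dim probe set reports cannot be read from the annotation used here. Akt1s1, known as PRAS40, a subunit that inhibits the complex until Akt phosphorylates it, measured 633.0, 592.3 and 699.5 with Lira, against 604.5, 605.2 and 562.0 with placebo. Its difference was 0.11 with an interval of -0.11 to 0.34 (adjusted p = 0.92, limma), and all 3 of its probe sets were higher on average.

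Rheb and the TSC genes, the switch on which Ddit4 acts, also gave overlapping groups. Rheb measured 3188, 3293 and 3455 with Lira, against 3477, 3403 and 3692 with placebo. Its interval, from -0.27 to 0.09 around a log2 difference of -0.09, was the narrowest of the 8 genes tested other than Ddit4 (adjusted p = 0.92, limma). Tsc1, which stabilises the complex, measured 248.6, 294.4 and 291.2 with Lira, against 245.4, 276.4 and 351.4 with placebo. Its difference was -0.05 with an interval of -0.36 to 0.26 (adjusted p = 0.98, limma), and it was above 0 without Lira replicate 1 and without placebo replicate 3. Tsc2, the part that acts on Rheb, measured 303.2, 314.2 and 374.4 with Lira, against 339.9, 314.6 and 287.9 with placebo. Its difference was 0.07 with an interval of -0.20 to 0.34 (adjusted p = 0.97, limma), and it was below 0 without Lira replicate 3.

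**Figure D2:**
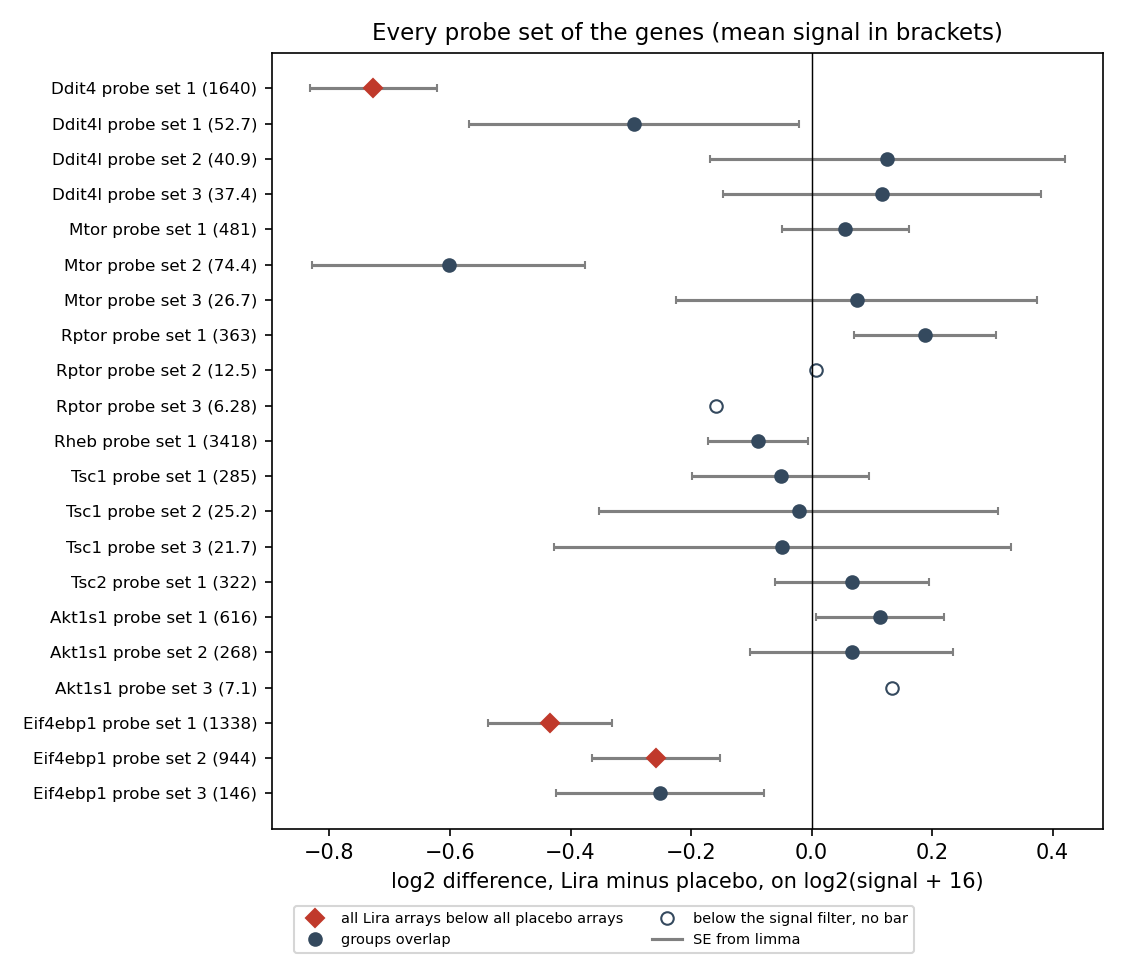
Log2 difference, Lira minus placebo, for all 21 probe sets, with the SE from limma as bars where the probe set passed the signal filter and the mean signal over 6 arrays in brackets. Diamonds mark the 3 probe sets, 1 of Ddit4 and 2 of Eif4ebp1, whose Lira arrays all lie below all placebo arrays.

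All 9 genes with a probe set passed the filter on low signal, which rests on the mean over both groups. Of these 9, 1 passed the adjusted threshold, Ddit4, beside 7 of 12736 genes or 0.055% in the whole comparison, with 0.0314% lower and 0.0236% higher. Ddit4 was chosen for that result, so nothing is read from the count. Of the 8 others, 0 passed in limma and 1, Eif4ebp1, had an unadjusted p under 0.05, where 6.02% of all tested genes did, 3.12% lower and 2.91% higher. The groups did not overlap for Ddit4 and Eif4ebp1, both lower with Lira, where 11.4% of all genes showed such a gap, 5.41% lower and 5.98% higher. The 8 genes had 4 differences above and 4 below 0, with a median of 0.002 on the log2 scale. Over all genes tested the median was 0.008, with 6614 higher and 6122 lower. Ddit4 did not pass when Lira replicate 1, 2 or 3 or placebo replicate 1 or 2 was left out, and its log2 difference then lay between -0.76 and -0.63. It also did not pass with median centring, without the signal filter, with every probe set tested, with a gene's probe sets averaged or without the variance trend.

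The wider pathway, in 8 lists of 108 genes with 95 tested, had nearly as many genes higher as lower. With Lira 47 were higher and 48 lower, and the median log2 difference was -0.001. Apart from Ddit4, which was placed on a list with its result known, 0 of them passed in limma, where 0.055% of all tested genes did. Besides Ddit4, 6 of the 95 genes had an unadjusted p under 0.05, 2 higher and 4 lower, a share near the 6.02% of all tested genes. The lists share members with the 10 genes above.

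Among 10 tested subunits of mTORC1 and mTORC2, 7 were higher and 3 lower (median 0.04). Deptor, which binds and inhibits the kinase, measured 300.5 ± 77.5 with Lira and 396.1 ± 47.0 with placebo (SD, n = 3 each; log2 difference -0.41, adjusted p = 0.78 in limma), and 3 of its 6 probe sets had the other sign. Mlst8, a subunit of both complexes, measured 122.8 ± 29.0 with Lira and 90.2 ± 13.2 with placebo, with the groups apart (difference 0.37, adjusted p = 0.83). Of 7 genes of the TSC complex, Rheb and the Ddit4 family, 6 were lower, and the largest difference after Ddit4 and Ddit4l was that of Tbc1d7, the third TSC subunit, at 204.1 ± 23.2 with Lira and 251.5 ± 23.4 with placebo (difference -0.28, adjusted p = 0.82). The dimmer of its 2 probe sets had the other sign.

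Of 28 tested genes that report amino acids to mTORC1, 15 were higher and 13 lower (median 0.03). The sestrins, which hold mTORC1 down when leucine is short, had differences of either sign. Sesn3 measured 194.3 ± 13.5 with Lira and 141.3 ± 20.6 with placebo, with the groups apart (difference 0.43, adjusted p = 0.64 in limma). Sesn1 measured 1168 ± 83.6 with Lira and 1558 ± 454 with placebo, with overlapping groups (difference -0.37, adjusted p = 0.80). Its 4 probe sets shared the sign but not the size. The second brightest gave 1023 ± 15.2 with Lira and 1039 ± 120 with placebo (difference -0.02), and the third differed by -0.15. Neither gene passed, and whether Sesn3 and Sesn1 differ from each other was not tested.

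Of 17 tested kinases and phosphatases upstream of TSC, 10 were higher and 7 lower (median 0.03). Sgk1, a glucocorticoid-induced kinase, measured 1339 ± 170 with Lira and 1670 ± 59.3 with placebo (difference -0.32, adjusted p = 0.63 in limma). Stk11, or LKB1, the kinase that activates AMPK, measured 817.7 ± 28.6 with Lira and 637.2 ± 104 with placebo (difference 0.36, adjusted p = 0.64). The groups were apart for both, and the dim second probe set of Stk11 had the other sign, at 17.9 ± 11.7 with Lira and 46.8 ± 20.8 with placebo.

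Downstream of mTORC1 no gene passed. Of 7 tested genes of the S6 kinase arm 4 were higher and 3 lower, and the largest was Eef2k, the kinase that slows translation elongation, at 276.5 ± 6.17 with Lira and 336.0 ± 55.2 with placebo (difference -0.26, adjusted p = 0.83 in limma). Eif4b, a helper of the cap-binding complex, differed by 0.15 (adjusted p = 0.87). Of 9 genes of the 4E-BP and cap-binding arm 7 were lower and 2 higher (median -0.08). Eif4a2, an RNA helicase, was among the higher, at 7053 ± 374 with Lira and 5986 ± 1165 with placebo (difference 0.25, adjusted p = 0.83), and Eif4ebp2, the sister of Eif4ebp1, differed by -0.14 ± 0.18 (SE). Of 9 genes that start autophagy 4 were higher and 5 lower, with Tfeb, which drives lysosomal genes, at -0.43 ± 0.23 (SE) and Rb1cc1, a subunit of the ULK1 complex, at 0.18 ± 0.14. The other 2 probe sets of Rb1cc1 had the other sign with the groups apart, at 164.4 ± 22.4 with Lira and 198.2 ± 12.2 with placebo for the brighter (difference -0.25) and -0.31 for the dimmer. Of 8 amino acid transporters 4 were higher and 4 lower, with Slc7a1 at 0.24 ± 0.13 (SE) and Slc38a2 at -0.14 ± 0.12. The dimmest of the 3 Slc7a1 probe sets had the other sign.

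**Figure D3:**
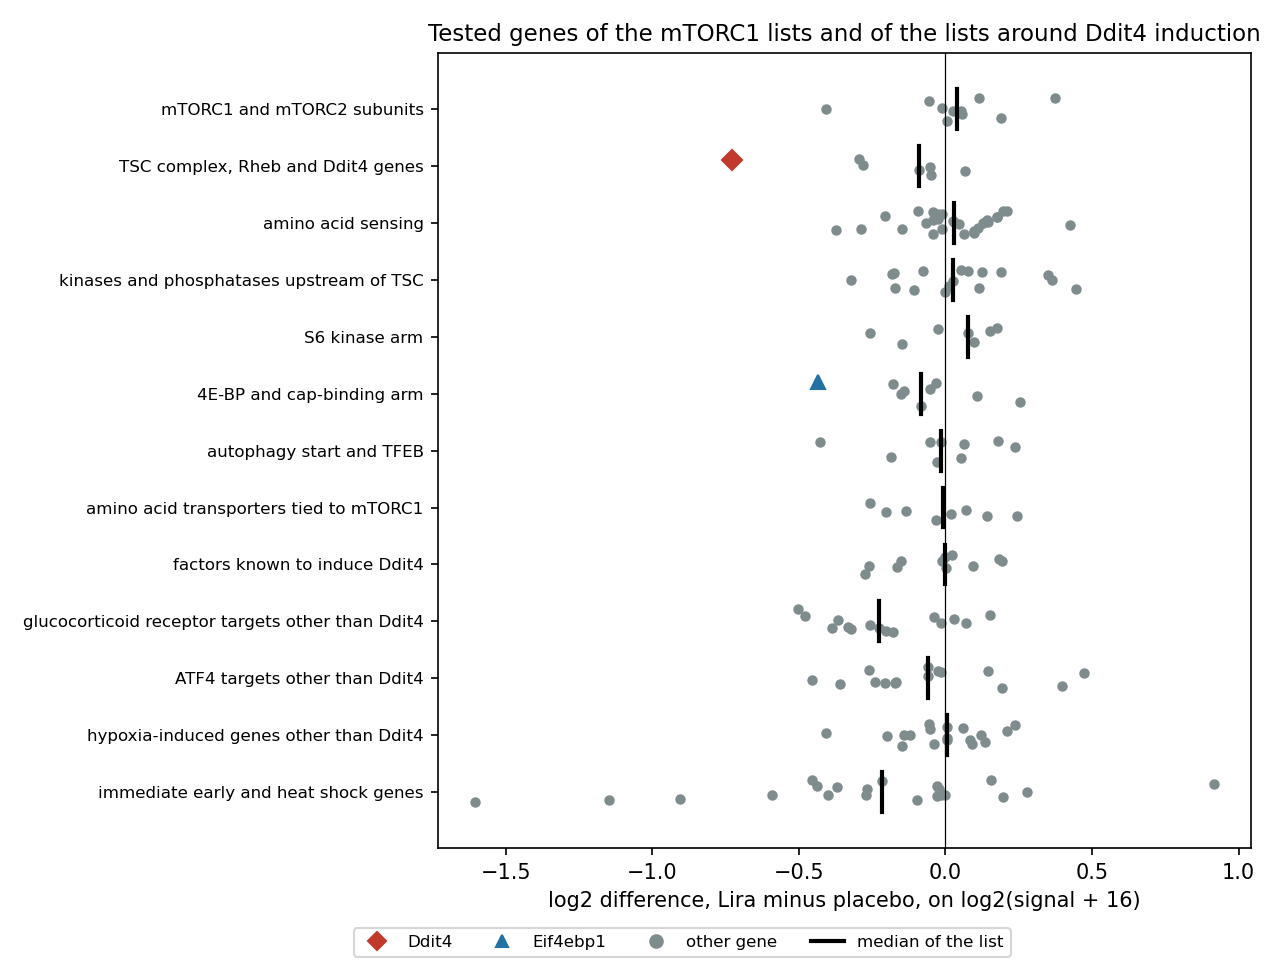
Log2 difference, Lira minus placebo, of each tested gene in the 8 mTORC1 lists and in 5 lists around the induction of Ddit4, with a thick line at the median of each list. Ddit4 (diamond) and Eif4ebp1 (triangle) lie at -0.73 and -0.43, and the list medians run from -0.23 to 0.08.

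Transcription factors known to induce Ddit4 were compared next, by their mRNA, which does not show whether the proteins were active. Of the 12 listed, Trp53 had no probe set that names it alone and was not tested. Of 11 tested, 5 were higher and 6 lower, and none passed; these small differences became 7 higher and 4 lower after quantile normalisation and 6 and 5 after median centring. The glucocorticoid receptor Nr3c1 measured 632.1 ± 93.5 with Lira and 631.2 ± 70.6 with placebo, with a 95% interval of -0.27 to 0.27 for the log2 difference. Atf4, the factor of the integrated stress response, measured 1105 ± 98.9 with Lira and 1106 ± 132 with placebo, with an interval of -0.23 to 0.24. Hif1a, the hypoxia factor, measured 949.4 ± 150 with Lira and 929.4 ± 80.3 with placebo, with an interval of -0.24 to 0.29. These 3 were named after their values had been seen. By the rule for named genes, Cebpb differed by -0.26 ± 0.11 (SE) and Foxo3 by -0.28 ± 0.13, with overlapping groups.

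Other genes that glucocorticoids induce were mostly lower with Lira. Of 15 tested, 12 had lower and 3 higher means, the median difference being -0.23. None passed the adjusted threshold in limma, and 4, all lower, had an unadjusted p under 0.05, where 3.12% of all tested genes were lower at that p. Relative to the placebo mean, the list mean without Ddit4 was -0.12, -0.37 and -0.12 on the Lira arrays, against 0.03, -0.05 and 0.03 on the placebo arrays, and no Lira array reached a placebo array. Cebpd, an inflammatory and glucocorticoid-induced transcription factor, measured 375.0 ± 25.5 with Lira and 489.5 ± 52.8 with placebo (difference -0.37, adjusted p = 0.62), and Sgk1 is also on this list. Earlier work on these arrays had already shown this shift, so it is no independent support.

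Array means of ATF4 targets and hypoxia-induced genes overlapped between the groups. Of 15 ATF4 targets 11 were lower and 4 higher. Their median was -0.06 and ran from -0.18 to 0.03 over the alternatives, and the array means overlapped, at -0.21 to 0.09 with Lira and -0.11 to 0.11 with placebo. The serine synthesis gene Phgdh was among the higher (difference 0.47, adjusted p = 0.80 in limma), but 2 of its 4 probe sets had the other sign, at -0.02 and -0.18. Of 18 hypoxia-induced genes 10 were higher and 8 lower (9 and 9 after quantile normalisation), the median was 0.006, and the array means overlapped, at -0.04 to 0.009 with Lira and -0.07 to 0.12 with placebo. Vegfa, the endothelial growth factor, measured 895.9 ± 130 with Lira and 1184 ± 23.8 with placebo (difference -0.41, adjusted p = 0.54), and its dimmer probe set had the other sign. Egln1, which marks HIF for destruction, measured 4663 ± 97.0 with Lira and 3955 ± 140 with placebo (difference 0.24, adjusted p = 0.64), with 0.006 on its second probe set.

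Immediate early and heat shock genes, which handling and tissue collection can also induce, were also mostly lower with Lira. Of 21 tested, 17 had lower and 4 higher means with Lira (16 and 5 after median centring), and the median difference was -0.21. None passed the adjusted threshold in limma, and 7 had an unadjusted p under 0.05, 6 lower and 1 higher. Of all tested genes 6.02% did, 3.12% lower and 2.91% higher. Hspa1a and Hspa1b, near-identical copies, both count among the 6. The list was drawn up with earlier results of these arrays known, so these counts are no independent support. The list mean was -0.25, -0.18 and -0.33 on the Lira arrays, against 0.09, -0.19 and 0.11 on the placebo arrays, so placebo replicate 2 lay with the Lira arrays. On that array Ddit4 was at the middle of the placebo group. Hspa1b, an inducible Hsp70 gene whose probes may also read its near-identical copy Hspa1a, measured 270.1 ± 136 with Lira and 839.2 ± 309 with placebo (SD, n = 3 each) and differed by -1.60 ± 0.29 (SE; adjusted p = 0.12 in limma), and Klf4 by -0.44 ± 0.10 (adjusted p = 0.29). Their part in the Ddit4 difference was not tested.

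**Figure D4:**
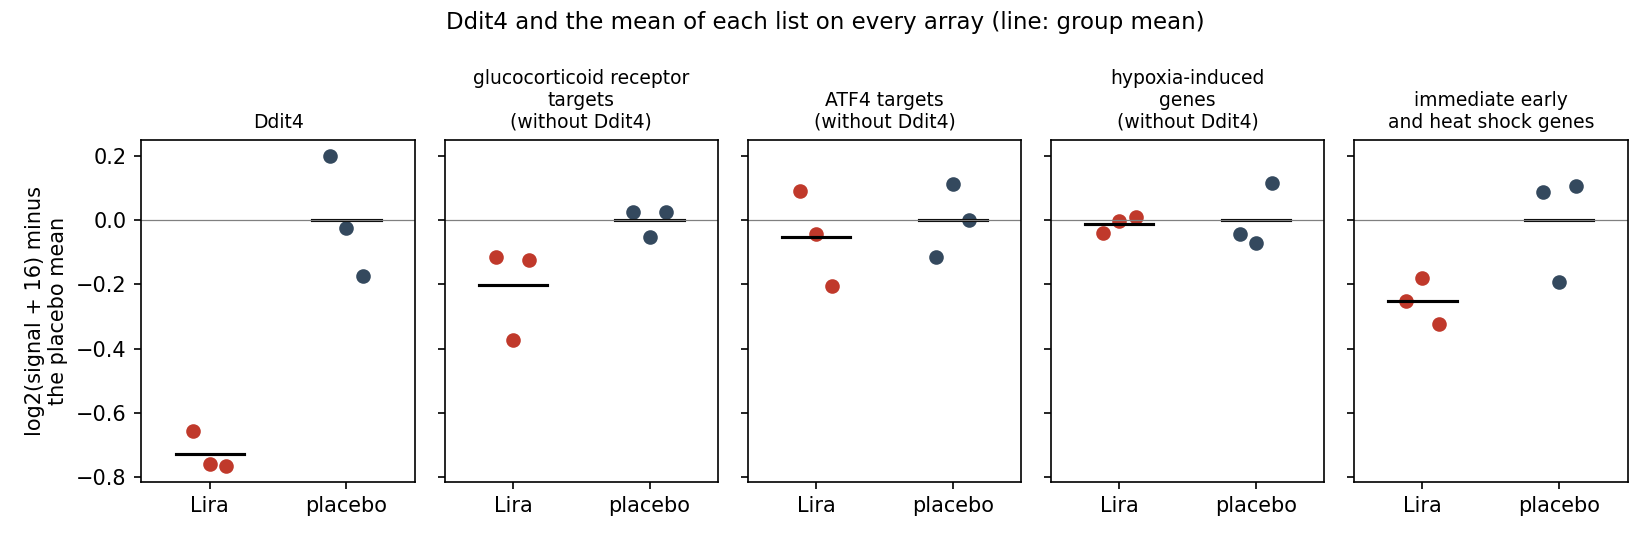
Ddit4 and the mean of 4 gene lists on every array, as log2(signal + 16) minus the mean of the 3 placebo arrays, with Lira left of placebo and a line at each group mean. The Lira arrays lie below all placebo arrays for Ddit4 and for glucocorticoid receptor targets, and the groups overlap for ATF4 targets, hypoxia-induced genes and immediate early and heat shock genes.

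The genes with a profile most like that of Ddit4 were named by Pearson's r over the 6 arrays, given as a description with no p because Ddit4 itself splits the arrays into the groups. They were Stc1, which encodes the secreted glycoprotein stanniocalcin, with r = 0.99, then Top1mt, Batf3, Cubn and Eif6, each with r = 0.98. All but Eif6 were dim, with mean signals from 31.2 for Batf3 to 74.4 for Top1mt. The second Cubn probe set differed by -0.01, with overlapping groups. Stc1 gave 40.2, 34.6 and 35.7 with Lira, against 87.6, 70.9 and 55.4 with placebo, and like Ddit4 it was highest on placebo replicate 1 and lowest in that group on placebo replicate 3. The most opposite profiles were those of Cbr1, Nrde2 and the uncharacterised 2210407C18Rik, with r = -0.98, -0.98 and -0.975, and the last of these passed the adjusted threshold (log2 difference 1.12 ± 0.15, SE; adjusted p = 0.016 in limma). The other of the 2 Nrde2 probe sets had the other sign of difference. Of 12735 genes compared, 84 had r above 0.9 and 86 had r below -0.9. Among the 8 other genes of the set that were tested, Eif4ebp1 had the highest r at 0.85, and after subtracting each group's mean its r with Ddit4 was -0.08. On that scale the 8 genes ran from -0.94 for Tsc1 to 0.61 for Ddit4l. Stc1 kept an r of 0.99 there, but it had been picked as the highest of 12735 on these same arrays. The second Stc1 probe set was dimmer, at 5.47 ± 6.47 with Lira and 10.3 ± 3.43 with placebo, with overlapping groups. Its order on the placebo arrays was the reverse, lowest on placebo replicate 1 and highest on placebo replicate 3.

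Markers of other cells were compared because whole ventricle holds several types. The summed signal of 7 macrophage markers was 2691 to 3169 with Lira and 2529 to 2693 with placebo, and all 7 had a higher mean with Lira. That of 6 endothelial markers was 2791 to 3016 with Lira and 2459 to 3007 with placebo. The 5 atrial markers summed to 1618 to 2268 with Lira and 2787 to 3218 with placebo. Most of that sum came from Nppa, which stressed ventricle also makes. Myl4 went the other way, at 114.4 ± 5.69 with Lira and 92.9 ± 15.3 with placebo, with the groups apart. Myl7 did not exceed 17.3 on any array. The 5 T and B cell markers with a probe set summed to 79.3 to 124.8 with Lira and 63.1 to 121.7 with placebo. The 6 fibroblast markers summed to 10660 to 12711 with Lira and 9679 to 10607 with placebo. Most of that sum came from Dcn, at 7976 ± 703 with Lira and 6790 ± 101 with placebo. Of the 6, 4 were higher with Lira and 2, Col1a1 and Col1a2, were lower. The 6 smooth muscle and pericyte markers summed to 9281 to 9689 with Lira and 8614 to 9726 with placebo. Most of this came from Rgs5, at 8058 ± 249 with Lira and 7636 ± 554 with placebo. No tested marker of these lists passed in limma, no marker was listed at 0, and their part in the differences of Ddit4 and Eif4ebp1 was not tested.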

How the data were processed

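Per the submitters' processing notes, the authors used Affymetrix Expression Console to make the deposited signal intensities, with version and algorithm not stated. Those deposited intensities are linear and have a 2% trimmed mean of 150 on every array, as checked on the values. That scaling leaves only changes relative to other genes. No detection calls were used, so dim signals could not be told from background.

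Control probe sets (64) were left out. Of the rest, 34945 name 1 gene, 932 name several and were not used, and 9160 were not in the name table; names were updated through gene IDs to GRCm38.p6 (99.4% matched). Each gene took its probe set with the highest mean. Values were log2(signal + 16), and the lowest 30% of genes were left out, which keeps means of at least 23.7. The pseudocount understates changes of dim genes. The contrast of Lira minus placebo was fitted by limma 3.58.1 (R 4.3.3) with a variance trend, two-sided, and Benjamini-Hochberg adjustment over 12736 genes at 0.05. The fit was tested on simulated data. An exact permutation test of 3 against 3 arrays cannot go below 0.1. The design text ties each heart to its own mouse but does not say how mice were allocated, and p-values measure only the spread between these samples.

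The genes and lists were chosen with earlier results of these data known. The rule names all 10 genes, the 2 smallest p of each list, and the 5 most and 3 least similar to Ddit4; of genes beyond it, Nr3c1, Atf4, Hif1a and Eif4ebp2 were added after their values were seen. Alternatives were quantile normalisation, median centring, other pseudocounts, filters and probe set rules, other variance priors, array weights, a replicate block and each array left out.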

Additional observations from a re-analysis of the deposited data

How the results depend on the processing

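The number of genes past the adjusted threshold, 7 at the settings used, was 1 without the signal filter, 2 of 24462 with every probe set, and 0 in limma both with averaged probe sets (688 at an unadjusted p under 0.05) and without the variance trend (683), and it ran from 1 to 9 with each array left out. Of the 10 genes followed, the number past the threshold, 1, became 0 under those 4 settings and with median centring, and lay between 0 and 1 with single arrays left out. The cause was not tested. Without a filter and with every probe set the number of tests was larger, but its part was not tested on its own. The log2 difference of Ddit4 stayed below 0 in all 18 alternatives, at -0.81 to -0.63, and that of Eif4ebp1 at -0.51 to -0.31. With the mean of its probe sets Mtor was at -0.16. Leaving out single arrays gave -0.16 to 0.09 for Tsc1, with 0.02 when Lira replicate 1 and 0.085 when placebo replicate 3 was dropped, and -0.02 to 0.12 for Tsc2, with -0.021 when Lira replicate 3 was dropped. Replicate numbers did not pair the arrays, with correlations of same-numbered deviations of -0.03, 0.08 and -0.09, and 2 of 6 arrays correlated best with their own number. With the replicate block 7 genes passed and Ddit4 differed by -0.73, so the block changed no call among the 10 genes. Dim signal and 3 arrays a group limit the precision, most for Ddit4l, which the filter on the lowest 50% of genes removed.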
